A study of Homo sapiens with 18 samples.

Results

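The transcripts described here are 314 antisense long non-coding RNAs (lncRNAs), each measured on the same arrays as the gene it is named after. An antisense RNA was included if its gene symbol on the Affymetrix Human Gene 2.0 ST array was another symbol followed by -AS and a digit, and if that other symbol, the sense gene, also had a transcript cluster, the probe group with which the array measures a gene. Of 480 such symbols, 162 had no transcript cluster for the sense gene and 4 (*HOX* symbols and *EPB41L4A-AS1*) were left out. The 314 antisense RNAs belonged to 302 sense genes, 301 of them protein-coding, because 11 sense genes had more than 1 measured antisense RNA. The array held 53617 transcript clusters, of which 16098 carried a gene symbol, for 14884 distinct symbols. A symbol with several transcript clusters (16 antisense RNAs and 11 sense genes) was represented by the one with the highest mean over all arrays.

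Antisense lncRNAs are transcribed from the strand opposite to a gene. Some start beside the promoter of the sense gene and run away from it, so that both transcripts leave a shared stretch of open chromatin in opposite directions, while others start inside or beyond the sense gene and run across it. Single antisense RNAs are known to recruit chromatin modifiers to the sense promoter, to mask splice sites of the sense transcript or to change its stability, and others have no known effect on their neighbour.

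The arrays came from HCC1806 and HCC1395, both established lines of triple-negative breast cancer (TNBC). Each was treated for 48 h with a negative control GapmeR or with GapmeR 1 or GapmeR 2, both directed against the lncRNA *PART1*, and 3 arrays were run per group, 18 in all. GapmeRs are modified antisense oligonucleotides that lead RNase H to cleave the RNA they pair with, and the control cells also received one, so that no array shows cells without an oligonucleotide. Each line comes from a single tumor, so a line difference compares these lines and not classes of tumors, and the p-values measure the spread between arrays, which may be technical.

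In the control arrays, the epithelial marker *EPCAM* had a mean log2 signal of 11.2 in HCC1806 and 4.75 in HCC1395. The mesenchymal marker *VIM* stood at 5.12 and 9.31. Other markers were mixed. *KRT19* (9.04 and 3.72) followed *EPCAM*, and *ZEB1* (3.15 and 7.30) and *FN1* (7.15 and 11.7) followed *VIM*. The epithelial *KRT8* (5.59 and 5.60) and the basal *KRT14* (7.95 and 7.63) differed little (limma, adjusted p = 0.984 and 0.298). *KRT18* (10.3 and 7.11) and *KRT5* (9.24 and 5.28) were higher in HCC1806 but above the array median in both lines. Of the hormone receptor genes, *PGR* (2.57 and 2.58) lay below the array median, which was between 4.04 and 4.13, in both lines, and *ESR1* lay above it in HCC1806 (4.88) and below it in HCC1395 (3.69). The targeted gene, *PART1*, had a mean of 5.61 in the HCC1395 control arrays, 5.0 with GapmeR 1 and 4.95 with GapmeR 2 (adjusted p = 0.895 and 0.701). In HCC1806 it was not lower on the arrays labelled GapmeR 1 (3.93) or GapmeR 2 (4.12) than on the control arrays (3.84). Its control signals there lay below the array median. Whether a decrease could show at that level was not tested, and these arrays are named by their labels below. RNA from whole cultures cannot tell fewer cells that carry a transcript from less of it per cell.

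RefSeq positions placed 289 of the 314 pairs (92.0%) in 1 of 4 arrangements. In 106 pairs the antisense gene lay inside the sense gene (internal), in 85 the annotated 5′ ends of both genes lay within 2000 bases of each other (start-proximal), in 72 the antisense RNA started beyond the end of the sense gene and ran back across it (tail), and 26 pairs had another layout. Among the start-proximal pairs, 76 had a promoter window for both members, and the antisense start lay upstream of the sense start in 33 of them and inside the sense gene in 43. The median distance between the start sites of these windows was 414.5 bases. In 3 of the 76 pairs (*LEF1*, *NHSL1* and *VAV3*), all with the antisense start upstream, the window of a member does not lie at the outer 5′ end of its gene and the window starts are more than 2000 bases apart, and without them the median was 403 bases.

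The sense promoters of 4 pairs are shown because the antisense RNA starts inside the same 300-base window, upstream of the sense gene, and because both members of the pair differed between the lines. Each window runs 5′ to 3′ on the strand of the sense gene, from 250 bases before its start to 50 after, as given by RefSeq on GRCh38.p14. Capitals mark the bases between the antisense start and the sense start. The windows are those of *ZNF566*, a zinc finger gene (chr19:36489512-36489811, minus strand), *URB1*, which serves ribosome biogenesis (chr21:32392963-32393262, minus strand), *TBX5*, a T-box transcription factor of heart and limb development (chr12:114407963-114408262, minus strand), and *MNX1*, a homeobox gene of motor neuron and pancreas development (chr7:157010614-157010913, minus strand).
ZNF566: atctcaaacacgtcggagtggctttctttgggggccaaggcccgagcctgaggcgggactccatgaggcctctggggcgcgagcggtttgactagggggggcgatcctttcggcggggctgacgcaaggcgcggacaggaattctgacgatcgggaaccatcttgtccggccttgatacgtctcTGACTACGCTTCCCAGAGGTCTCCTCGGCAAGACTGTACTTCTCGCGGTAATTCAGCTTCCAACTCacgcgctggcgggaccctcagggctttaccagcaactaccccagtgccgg
URB1: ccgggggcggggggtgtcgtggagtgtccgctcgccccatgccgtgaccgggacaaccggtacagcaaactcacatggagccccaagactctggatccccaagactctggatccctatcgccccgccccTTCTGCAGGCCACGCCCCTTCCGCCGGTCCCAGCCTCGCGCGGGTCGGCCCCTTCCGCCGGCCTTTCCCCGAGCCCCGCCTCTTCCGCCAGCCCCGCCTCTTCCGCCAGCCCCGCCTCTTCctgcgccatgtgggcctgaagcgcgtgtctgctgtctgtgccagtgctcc
TBX5: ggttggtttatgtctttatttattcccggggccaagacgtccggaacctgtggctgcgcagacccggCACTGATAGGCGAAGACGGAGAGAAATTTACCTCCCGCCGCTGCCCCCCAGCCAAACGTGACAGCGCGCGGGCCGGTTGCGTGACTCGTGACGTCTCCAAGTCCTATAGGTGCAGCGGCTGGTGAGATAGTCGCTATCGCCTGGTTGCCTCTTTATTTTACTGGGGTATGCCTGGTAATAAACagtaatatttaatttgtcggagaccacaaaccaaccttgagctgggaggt
MNX1: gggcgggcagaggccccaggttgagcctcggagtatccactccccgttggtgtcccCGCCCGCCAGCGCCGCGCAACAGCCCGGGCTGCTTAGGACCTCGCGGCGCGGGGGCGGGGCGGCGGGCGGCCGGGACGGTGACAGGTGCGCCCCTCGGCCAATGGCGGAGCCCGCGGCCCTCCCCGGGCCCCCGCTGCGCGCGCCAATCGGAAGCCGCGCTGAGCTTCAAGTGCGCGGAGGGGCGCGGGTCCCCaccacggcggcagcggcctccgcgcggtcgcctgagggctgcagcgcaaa

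The capitals span 66 bases for *ZNF566*, 121 for *URB1*, 183 for *TBX5* and 194 for *MNX1*, and they hold 4, 15, 15 and 33 CpG dinucleotides. The whole windows hold 25, 28, 21 and 44 CpGs, against a median of 14 in all 27305 promoter windows of the reference. The letters GGGCGG, counted on both strands, occur 2 times in the *URB1* window and 5 times in the *MNX1* window, and CCAAT occurs 2 times in that of *MNX1*. Across all promoter windows, 44.6% hold GGGCGG and 35.7% hold CCAAT. The letters TATAAA, which 12.0% of all windows hold, are not in any of the 4 windows shown.

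The promoters of start-proximal antisense RNAs had a median of 24.5 CpGs per window and those of their sense genes 26. The promoters of antisense RNAs in the internal, tail and other layouts had a median of 7, while those of their sense genes had 24. GGGCGG was found in 59.2% of the start-proximal antisense promoters and in 35.8% of the other antisense promoters.

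As a class, the antisense RNAs lay closer to the array background than the sense genes. On the HCC1806 control arrays, the means of the antisense RNAs ran from 1.54 to 8.73 with a median of 3.95 on the log2 scale, and those of the sense genes from 1.91 to 10.6 with a median of 5.55. On the HCC1395 control arrays, the medians were 4.06 and 5.81. Signals of different probes are not comparable gene by gene, and no antisense level is set against that of its own sense gene. An antisense RNA stood above the array median on every control array in 123 of 314 cases in HCC1806 and in 139 in HCC1395, against 231 of 302 sense genes in each line.

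The first comparison asked how each pair differed between the control arrays of HCC1806 and HCC1395, where a gene was called at a Benjamini-Hochberg adjusted p under 0.05 over all transcript clusters. Of the antisense RNAs, 99 of 314 (31.5%) were called, 27 higher and 72 lower in HCC1806. Of the sense genes, 164 of 302 (54.3%) were called, 64 higher and 100 lower. Over all transcript clusters, 29.3% were called (14.4% higher and 14.9% lower), and 42.8% of those with a symbol. The antisense share lay close to the first background and below the second, and the sense share lay above both. Calls followed the signal. Of 150 antisense RNAs whose mean lay above the mean array median of 4.08, 54.0% were called, and of the 164 at or below it 11%. The same split of the sense genes gave 61.8% and 21.4%. The part of signal level in the difference between both classes was not tested. The median absolute log2 difference was 0.26 for the antisense RNAs and 0.50 for the sense genes. A difference of at least 2-fold, which 12.9% of all transcript clusters had, was called as higher for 10 antisense RNAs and 28 sense genes and as lower for 33 and 51.

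Both members of 67 pairs were called. In 59 of them antisense and sense differed in the same direction (14 higher and 45 lower in HCC1806), and in 8 they differed in opposite directions. The antisense RNA alone was called in 32 pairs, the sense gene alone in 105, and neither in 110. Across the 314 pairs, the log2 differences of antisense and sense had a Pearson correlation of 0.27 and a Spearman correlation of 0.40. This describes pairs measured on the same 6 arrays, some of which share a sense gene.

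**Figure D1:**
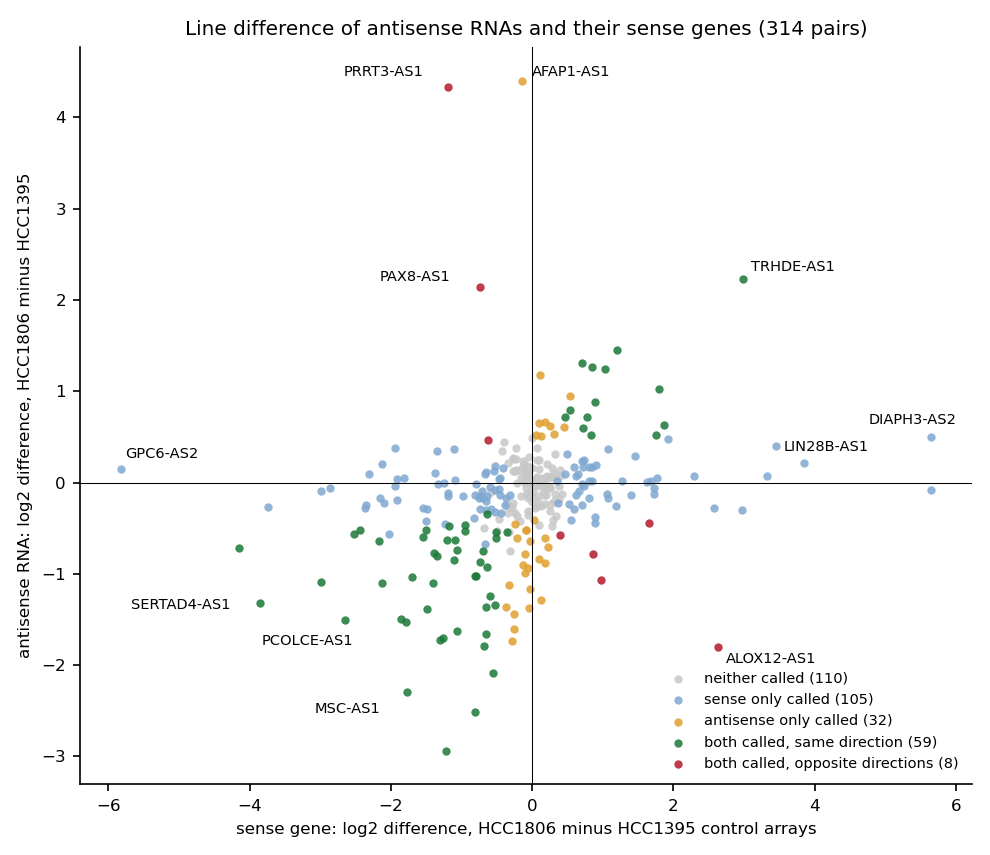
Each point is 1 of the 314 pairs, with the log2 difference between the control arrays of HCC1806 and HCC1395 (n = 3 each) of the sense gene on the x axis and of the antisense RNA on the y axis, colored by which members were called. The 59 pairs called in the same direction fill the lower left and the upper right of the plot, the 8 opposite pairs lie in its other corners, and the 105 pairs with only the sense gene called lie along the horizontal line.

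Among the pairs that differed together, *TRHDE* and its antisense RNA had the largest difference in favor of HCC1806. *TRHDE* encodes an ectoenzyme that degrades thyrotropin-releasing hormone. *TRHDE-AS1* had log2 signals of 4.48, 4.34 and 4.58 on the HCC1806 arrays and 2.08, 2.27 and 2.37 on the HCC1395 arrays. *TRHDE* had 6.01, 6.08 and 5.86 against 2.52, 3.39 and 3.10. The groups did not overlap for either member. The log2 difference was 2.23 for *TRHDE-AS1* (SE 0.19, adjusted p = 1.12e-07) and 2.98 for *TRHDE* (SE 0.25, adjusted p = 6.37e-08). All HCC1395 signals of the pair lay below the array median, so that the sizes are those of the array scale and their comparison between the members is limited by the background. The antisense minus sense difference was -0.75 (SE 0.25, adjusted p = 0.0256), and it missed the threshold when any of HCC1806 control replicates 1 and 2 or HCC1395 control replicates 1 and 3 was left out (adjusted p = 0.0611, 0.109, 0.140 and 0.0670).

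*MSC*, which encodes the basic helix-loop-helix repressor musculin, and *MSC-AS1* were both lower in HCC1806. *MSC-AS1* had signals of 4.06, 3.65 and 3.50 in HCC1806 and 6.04, 6.06 and 6.0 in HCC1395, and *MSC* had 4.69, 4.70 and 4.48 against 6.38, 6.15 and 6.67. Every HCC1806 array lay below every HCC1395 array. The log2 differences were -2.29 for *MSC-AS1* (SE 0.18, adjusted p = 3.66e-08) and -1.78 for *MSC* (SE 0.22, adjusted p = 7.72e-06), and the members did not differ from each other past the threshold (adjusted p = 0.183).

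*RBM5*, a splicing regulator, and *RBM5-AS1*, which lies inside it, had the highest Pearson correlation of all pairs over the 18 arrays, 0.97. With each array set against the mean of its line, the correlation of this pair was 0.35. *RBM5-AS1* had signals of 4.42, 4.43 and 4.18 in HCC1806 and 5.84, 6.10 and 5.67 in HCC1395. *RBM5* had 6.85, 7.09 and 6.98 against 8.80, 8.80 and 8.71. Both members were lower on each HCC1806 array, with log2 differences of -1.53 (SE 0.18, adjusted p = 4.32e-06) for the antisense RNA and -1.79 (SE 0.12, adjusted p = 3.87e-09) for *RBM5*.

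*PAXIP1*, a BRCT-domain protein of histone methyltransferase complexes, and *PAXIP1-AS2* were both lower in HCC1806, in a tail arrangement. *PAXIP1-AS2* had signals of 6.50, 6.47 and 6.55 in HCC1806 and 8.22, 8.31 and 8.15 in HCC1395, a log2 difference of -1.72 (SE 0.12, adjusted p = 1.28e-08). The difference of *PAXIP1* was -1.30 (SE 0.12, adjusted p = 1.92e-07). *HEXA*, the alpha subunit of lysosomal beta-hexosaminidase, differed by -1.85 (SE 0.14) and *HEXA-AS1* by -1.50 (SE 0.30). *PRICKLE2*, a planar cell polarity gene, differed by -1.49 (SE 0.22) and *PRICKLE2-AS3* by -1.39 (SE 0.19). The value of *PRICKLE2* depends on which of its 2 transcript clusters is used.

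In the pairs of *PCOLCE* and *SERTAD4* the sense gene differed more than its antisense RNA. *PCOLCE*, which enhances the processing of procollagens, had signals between 5.11 and 5.16 in HCC1806 and between 7.61 and 8.03 in HCC1395, and *PCOLCE-AS1* between 4.01 and 4.08 and between 5.21 and 5.90. The log2 differences were -2.65 (SE 0.21) and -1.51 (SE 0.17), and the antisense difference was smaller by 1.14 (SE 0.21, adjusted p = 9.91e-05). The HCC1806 signals of *PCOLCE-AS1* lay near the array median, so that the background limits this comparison between the members. *SERTAD4*, which encodes a SERTA domain protein, had a log2 difference of -3.85 (SE 0.14) and *SERTAD4-AS1* of -1.32 (SE 0.21), which differ from each other by 2.53 (SE 0.25, adjusted p = 8.83e-09). Of the 59 pairs with a shared direction, the members differed from each other in 27, with the larger change in the sense gene in 18 and in the antisense RNA in 9. The antisense RNAs were dimmer as a class, and the part of signal level in these counts was not tested. The largest antisense difference of the 59 was that of *CCDC18-AS1* (-2.94, against -1.22 for the sense gene *CCDC18*), a pair picked out after its values were seen.

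**Figure D2:**
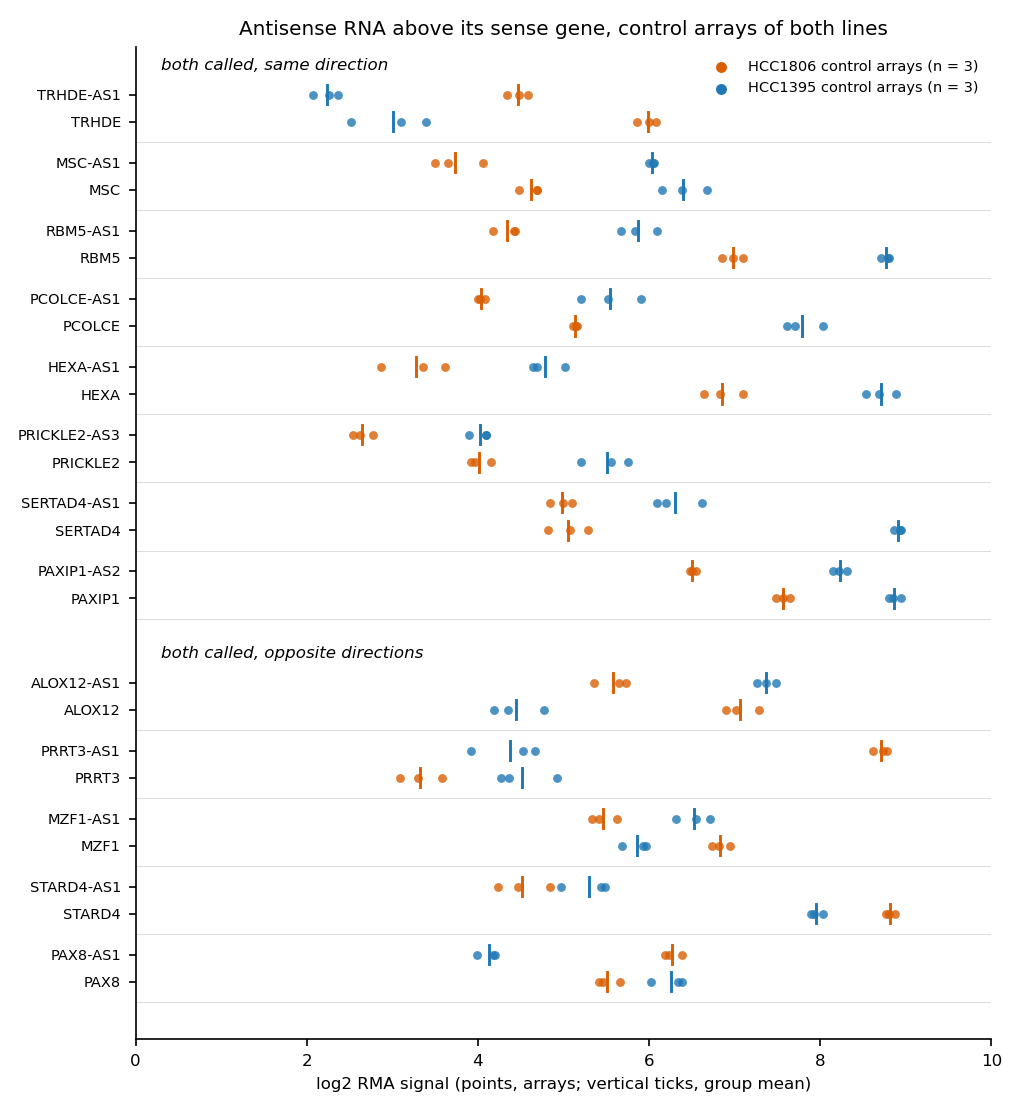
Points give the log2 RMA signal of each control array (3 per line) and vertical ticks the group means, for 8 pairs called in the same direction and 5 in opposite directions, the antisense RNA above its sense gene. The colors change sides between the rows of each opposite pair, and in none of the rows do the 3 arrays of HCC1806 overlap the 3 of HCC1395.

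In 8 pairs the members differed in opposite directions. Antisense and sense differed from each other in all 8, which the choice by opposite calls made nearly certain. *ALOX12*, the arachidonate 12-lipoxygenase, had signals of 7.01, 7.29 and 6.90 in HCC1806 and 4.36, 4.77 and 4.19 in HCC1395. *ALOX12-AS1* had 5.36, 5.73 and 5.65 against 7.26, 7.49 and 7.37. The sense gene was thus higher and the antisense RNA lower on every HCC1806 array, with log2 differences of 2.63 (SE 0.19, adjusted p = 1.15e-08) and -1.80 (SE 0.16, adjusted p = 1.18e-07).

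*PRRT3*, a proline-rich transmembrane protein gene, showed the reverse order. *PRRT3-AS1* had signals of 8.78, 8.74 and 8.62 in HCC1806 and 3.92, 4.53 and 4.67 in HCC1395, a 20.2-fold difference (log2 4.34, SE 0.31, adjusted p = 1.18e-08). *PRRT3* had 3.30, 3.58 and 3.09 against 4.93, 4.36 and 4.27 (log2 -1.20, SE 0.21, adjusted p = 0.000235). In HCC1806 the signals of *PRRT3* lay below the array median. Those of *PRRT3-AS1* in HCC1395 lay around it, so its fold is one of the array scale.

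*PAX8*, a paired-box transcription factor of thyroid and kidney, gave another pair of this order, with the antisense gene inside it. *PAX8-AS1* had signals of 6.19, 6.23 and 6.39 in HCC1806 and 4.20, 4.0 and 4.18 in HCC1395 (log2 2.14, SE 0.18, adjusted p = 6.17e-08). *PAX8* had 5.42, 5.66 and 5.47 against 6.39, 6.34 and 6.02 (log2 -0.74, SE 0.13, adjusted p = 0.000204). The antisense RNA was higher and the sense gene lower on each HCC1806 array.

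*MZF1*, a zinc finger transcription factor named for myeloid cells, differed by 0.98 (SE 0.16) and *MZF1-AS1* by -1.07 (SE 0.17). *STARD4*, which carries cholesterol between membranes, differed by 0.87 (SE 0.12) and *STARD4-AS1* by -0.78 (SE 0.22, adjusted p = 0.0103). The call of *STARD4-AS1* was lost when HCC1806 control replicate 2 was left out (-0.64, adjusted p = 0.0582). The remaining opposite pairs were smaller in their weaker member, those of *ENTPD3* (antisense -0.45, sense 1.66), *THAP7* (-0.58 and 0.39) and *SBF2* (0.47 and -0.63).

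Where the antisense RNA alone was called, *AFAP1-AS1* had the largest difference of all 314. *AFAP1* encodes an actin filament associated protein, and *AFAP1-AS1* is known as a lncRNA that is abundant in several carcinomas. Its signals were 8.47, 8.82 and 8.88 in HCC1806 and 4.83, 3.96 and 4.18 in HCC1395, while *AFAP1* had 6.10, 5.98 and 6.20 against 6.31, 6.10 and 6.31. The antisense RNA was thus 21.2-fold higher in HCC1806 (log2 4.40, SE 0.29, adjusted p = 5.25e-09), and the groups of *AFAP1* overlapped (-0.15, SE 0.11, adjusted p = 0.365). The HCC1395 signals of *AFAP1-AS1* lay around the array median, so this fold is one of the array scale and not a measured ratio of RNA. The difference between the members was 4.55 (SE 0.28, adjusted p = 2.79e-12). Its choice as the largest antisense difference without a sense call made this nearly certain.

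In the other pairs of this kind named here the antisense RNA was lower in HCC1806. *TMEM147-AS1*, beside a gene for a membrane protein of the endoplasmic reticulum, had signals of 5.30, 5.45 and 4.98 against 6.86, 6.74 and 6.94 (log2 -1.60, SE 0.13), while *TMEM147* differed by -0.26 (SE 0.14, adjusted p = 0.191). *CPB2-AS1* differed by -1.74 (SE 0.22) and *CPB2*, the carboxypeptidase that slows clot lysis, by -0.29 (SE 0.19, adjusted p = 0.332), with no *CPB2* signal above 2.86 on the control arrays. *FOXD2-AS1* differed by -1.44 (SE 0.13) and the forkhead gene *FOXD2* by -0.26 (SE 0.16, adjusted p = 0.266). In all 3 pairs the antisense minus sense difference was called, at adjusted p = 1.56e-06, 4.80e-05 and 3.05e-05. Their choice by a large antisense difference without a sense call made this likely, so these values are no separate support. Over all 32 pairs with only the antisense RNA called, the members differed from each other in 20.

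The 2 largest sense differences, those of *GPC6* and *DIAPH3*, were in genes whose antisense RNAs were not called. *GPC6*, a glypican that carries heparan sulfate on the cell surface, had signals of 3.44, 4.20 and 4.0 in HCC1806 and 9.63, 9.66 and 9.82 in HCC1395 (log2 -5.82, SE 0.24, adjusted p = 1.57e-11). *GPC6-AS2*, inside it, had 1.55, 1.43 and 1.71 against 1.46, 1.42 and 1.35 (0.15, SE 0.14, adjusted p = 0.491). The antisense signals lay far below the array median in both lines.

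*DIAPH3*, a formin that builds actin filaments, had signals of 8.23, 7.96 and 8.27 against 2.46, 2.41 and 2.63 (log2 5.65, SE 0.22, adjusted p = 1.01e-11). The HCC1395 signals lay far below the array median, and the files hold no detection call, so that this is a difference on the array scale and not a measured ratio of RNA. Its antisense RNAs differed by 0.50 (*DIAPH3-AS2*, SE 0.23, adjusted p = 0.119) and -0.08 (*DIAPH3-AS1*, SE 0.23, adjusted p = 0.858). The signals of *DIAPH3-AS1* spread from 3.55 to 4.84 within HCC1806 and enclosed those of HCC1395, 4.17 to 4.30. *LIN28B*, which blocks the maturation of let-7 miRNAs, differed by 3.85 (SE 0.21, adjusted p = 4.96e-10) and *LIN28B-AS1* by 0.21 (SE 0.16, adjusted p = 0.399). Over all 105 pairs with only the sense gene called, the members differed from each other in 79, and over all 314 pairs in 139.

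For some sense genes with several antisense RNAs, 1 antisense RNA was called and another was not. The antisense RNAs of 1 sense gene were not tested against each other, so a missing call does not set them apart. *FOXN3*, a forkhead repressor, differed by -2.13 (SE 0.15) and *FOXN3-AS1* by -1.10 (SE 0.17, adjusted p = 7.84e-05), while *FOXN3-AS2* differed by 0.21 (SE 0.16, adjusted p = 0.414). *FRMD6*, a FERM-domain gene of the Hippo pathway, differed by -1.11 (SE 0.11) and *FRMD6-AS1* by -0.84 (SE 0.20, adjusted p = 0.00411), while *FRMD6-AS2* differed by 0.37 (SE 0.17, adjusted p = 0.129). *PRICKLE2-AS2* (-0.29, adjusted p = 0.337) was not called beside *PRICKLE2-AS3*, nor *ST7-AS2* (-0.31, adjusted p = 0.283) beside *ST7-AS1* (-1.36, adjusted p = 7.07e-05), whose sense gene *ST7* differed by -0.66 (SE 0.11). In the other sense genes with several antisense RNAs none of these was called, including those of *NAV2*, a neuron navigator gene that itself differed by -1.95 (SE 0.13).

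For a few antisense RNAs the result depended on which transcript cluster stood for the symbol. The cluster used for *GAS6-AS1* differed by 0.00 between the lines and its other cluster by -1.86, and for *WEE2-AS1* the values were 0.48 and -0.77.

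The start-proximal pairs held the most pairs that differed together. In this class 35 of 85 antisense RNAs and 45 sense genes (counted per pair) were called, with both called in the same direction in 21 pairs and in opposite directions in 2. Among the 72 tail pairs the counts were 27, 41, 14 and 4, and among the 106 internal pairs 23, 61, 16 and 1. The antisense shares called were 41.2%, 37.5% and 21.7% in this order, beside 31.5% of all antisense RNAs. Of all transcript clusters 29.3% were called, and of those with a symbol 42.8%. The sense shares were 52.9%, 56.9% and 57.5%, near the 54.3% of all sense genes. The Pearson correlation between antisense and sense differences, given as a description, was 0.44 over the start-proximal, 0.32 over the internal and 0.15 over the tail pairs. The median absolute antisense difference was 0.39, 0.19 and 0.31 in the same order. The difference between the classes was not tested, and the class with the most calls also differs from the others in its CpG content.

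**Figure D3:**
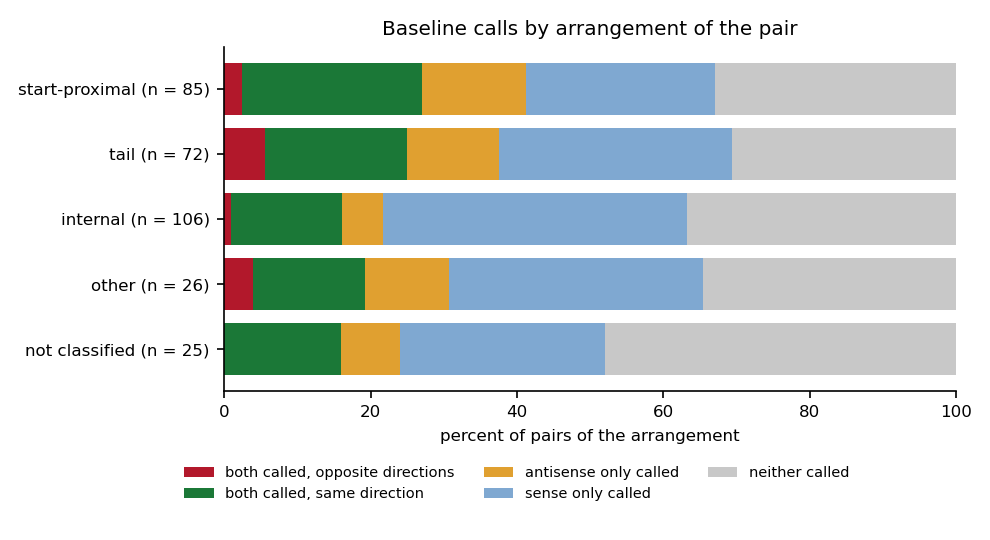
Bars give the percent of pairs of each arrangement by which members were called between the control arrays of HCC1806 and HCC1395. Pairs with both members called in the same direction make up 21 of 85 start-proximal, 14 of 72 tail and 16 of 106 internal pairs.

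Of the 21 start-proximal pairs whose antisense RNA starts within 250 bases upstream of the sense start, both members were called in 4, the pairs of the printed promoters, and in all 4 they moved the same way. *TBX5-AS1* (0.63, SE 0.15) and *TBX5* (1.87, SE 0.14) were higher in HCC1806. *URB1-AS1* (-1.35) and *URB1* (-0.53), *ZNF566-AS1* (-1.02) and *ZNF566* (-0.81), and *MNX1-AS1* (-0.54) and *MNX1* (-0.95) were lower. The antisense RNA alone was called in 4 further pairs, the sense gene alone in 3, and neither in 10. Of all 314 pairs, both members were called in 67, and in 59 of these in the same direction. The antisense RNA alone was called in 32 of the 314, the sense gene alone in 105, and neither in 110. The share of pairs with both members called was thus not higher among the 21 than among all pairs. A difference between the 21 and the other pairs was not tested.

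Lists by the role of the sense gene covered some of the pairs. That of transcription factors held 22 pairs and 19 sense genes, and it does not hold every such gene of the 302, so that *MZF1*, *MSC*, *FOXD2*, *ZNF566*, *ZNF143* and *ZNF436* are not counted in it. Of their antisense RNAs 3 were higher and 7 lower in HCC1806, and of the sense genes 4 and 9, with medians of -0.01 and -0.43. The shares called were 45.5% and 68.4%, beside 31.5% and 54.3% of all antisense RNAs and sense genes. They stand beside 29.3% of all transcript clusters and 42.8% of those with a symbol. Both members were called in 9 pairs, 8 of them in the same direction. *DLX6*, a homeobox gene, and *DLX6-AS1* differed by -1.26 and -1.70, and the zinc finger gene *ZNF790* and *ZNF790-AS1* by -0.81 and -2.51. *FEZF1*, a forebrain zinc finger factor, was higher by 1.80 and *FEZF1-AS1* by 1.03.

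*ZEB1* and *ZEB2*, repressors of epithelial genes, differed more than their antisense RNAs. *ZEB1* differed by -4.15 (SE 0.21, adjusted p = 1.65e-10) and *ZEB1-AS1* by -0.72 (SE 0.18, adjusted p = 0.00541). *ZEB2* differed by -2.36 (SE 0.19), while *ZEB2-AS1*, known for keeping a *ZEB2* intron from being spliced, differed by -0.24 (SE 0.31, adjusted p = 0.648). *LEF1*, a nuclear effector of Wnt signaling, differed by -2.52 (SE 0.24) and *LEF1-AS1* by -0.57 (SE 0.17). *GATA3*, the luminal factor, was higher by 3.33 (SE 0.21) and *GATA3-AS1* differed by 0.08 (SE 0.17, adjusted p = 0.810).

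The list of adhesion, matrix and cytoskeleton genes held 13 pairs and 11 sense genes, of which 2 sense genes were higher and 5 lower, with a median of -0.15, and 2 antisense RNAs were higher and 3 lower, with a median of 0.04 (63.6% and 38.5% called). Both members were lower for *LOXL1*, which crosslinks elastin (antisense -1.10, sense -1.40), for *ARHGAP5*, a GTPase-activating protein (-1.63 and -1.06), and for *MYLK*, the myosin light chain kinase (-0.52 and -2.44). The signaling list, which leaves out members such as *EGFR*, *FZD10*, *TLR8* and *UNC5B* and holds *HAS2*, had 7 pairs, of which 1 antisense RNA was higher and 1 lower and 2 sense genes were higher and 3 lower, with medians of -0.06 and 0.07 (28.6% and 71.4% called). *HAS2*, a hyaluronan synthase, and *HAS2-AS1* were lower (-1.10 and -0.63), and *EPHA1*, an ephrin receptor, and *EPHA1-AS1* were higher (0.72 and 0.60). The lipoprotein receptor gene *VLDLR* differed by -3.74 (SE 0.21) and *VLDLR-AS1* differed by -0.27 (SE 0.14, adjusted p = 0.162). The only transporter pair, that of *SLC60A1*, was not called.

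The line differences were also measured on the arrays labelled GapmeR, which share no array with the controls. On the GapmeR 1 arrays all 99 antisense RNAs called at baseline had the same sign and 85 were called again, where 31.4% of all transcript clusters were called. On the GapmeR 2 arrays 98 had the same sign and 84 were called, with a background of 31.7%. These backgrounds cover all transcript clusters and not those called at baseline. The members were chosen by a call between the same lines, and all groups shared 1 estimate of the spread. The repeated calls are therefore a description and no independent test. Of the 59 pairs called in the same direction at baseline, both members were called again in 52 and 50, and of the 8 opposite pairs in 7 and 5. The difference of *AFAP1-AS1* was 4.63 and 4.67 on these arrays, where *AFAP1*, not called at baseline, was called lower in HCC1806 (-0.32 and -0.48, adjusted p = 0.0304 and 0.00203). The difference of *PRRT3-AS1* was 4.02 and 3.78 and that of *ALOX12-AS1* -1.65 and -1.59.

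Over all 18 arrays the correlation between antisense and sense signal ranged from -0.96 to 0.97 with a median of 0.21. The highest values were those of *RBM5* (0.97), *PAXIP1* (0.97), *ARHGAP5* (0.97), *TRHDE* (0.96) and *PCOLCE* (0.96). The lowest were those of *ALOX12* (-0.96), *PAX8* (-0.93), *PRRT3* (-0.91), *MZF1* (-0.87) and *AFAP1* (-0.79). With each array set against the mean of its line, the median fell to 0.09, with a range from -0.55 to 0.78. The 5 highest pairs then had 0.35 (*RBM5*), -0.45 (*PAXIP1*), 0.08 (*ARHGAP5*), 0.21 (*TRHDE*) and 0.49 (*PCOLCE*). The 5 lowest had 0.22 (*ALOX12*), 0.21 (*PAX8*), -0.21 (*PRRT3*), -0.11 (*MZF1*) and -0.13 (*AFAP1*). The arrays of a group are replicates, so these values describe 18 arrays and no more than 6 conditions.

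The second comparison asked how the pairs differed between the arrays labelled GapmeR and the control arrays within a line. No member passed an adjusted p of 0.05 in limma for either GapmeR or both together in either line, and neither did any of the 53617 transcript clusters (0%). The smallest adjusted p of an antisense RNA was 0.822 in HCC1806 and 0.634 in HCC1395. In simulated arrays, 12 of 50 changes of 1.6-fold were recovered in HCC1806 and 10 of 50 in HCC1395. A missing call therefore does not exclude a change of that size. At an unadjusted p under 0.05, HCC1806 had 13 antisense RNAs with GapmeR 1 and 13 with GapmeR 2, and 25 and 11 sense genes, where 5.97% and 5.07% of all transcript clusters passed. HCC1395 had 20 and 16 antisense RNAs and 13 and 19 sense genes, with backgrounds of 5.39% and 6.73%. The antisense shares, from 4.14% to 6.37%, lay near these backgrounds. The median absolute log2 change of the antisense RNAs lay between 0.11 and 0.12 for single GapmeRs, against 0.26 between the lines.

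The threshold used in the study was a change of 1.6-fold with an unadjusted p under 0.05 for at least 1 GapmeR. It is applied here to p-values from limma, while the study used the Transcriptome Analysis Console. In HCC1806, 0 antisense RNAs and 7 sense genes passed, where 2.06% of all transcript clusters and 0.845% of those with a symbol passed. *HS6ST2*, which adds 6-O-sulfate to heparan sulfate, passed with both GapmeRs. The control arrays read 5.08, 4.75 and 4.73, the GapmeR 1 arrays 3.90, 3.66 and 4.53 and the GapmeR 2 arrays 4.15, 4.0 and 4.24. All 6 GapmeR arrays lay below the 3 control arrays (log2 change with both -0.77, SE 0.18, unadjusted p = 0.0019, adjusted p = 0.861). *HS6ST2-AS1* lay between 3.40 and 3.77 on the control arrays and between 3.38 and 3.75 on the others (0.02, SE 0.12).

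*LEMD1*, a LEM-domain gene of testis and tumors, was the one of the 7 with higher signals on the GapmeR arrays. Its control signals were 3.00, 2.58 and 2.93, those of GapmeR 1 were 3.64, 3.47 and 3.49 and those of GapmeR 2 were 3.39, 3.30 and 3.71. All 6 GapmeR arrays lay above the 3 control arrays (log2 change with both 0.66, SE 0.14, unadjusted p = 0.000756, adjusted p = 0.861), and *LEMD1-AS1* changed by -0.03 (SE 0.15).

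The other 5 sense genes, like *LEMD1*, passed with GapmeR 1 alone, and in each of these 5 the array of GapmeR 1 replicate 3 was the highest of its group. They were *ARHGEF26* and *DIAPH3*, which act on the actin cytoskeleton, *DPYD*, the first enzyme of pyrimidine breakdown, *UST*, a uronyl sulfotransferase, and *VWA8*, a mitochondrial ATPase. *UST* had signals of 3.89, 3.87 and 5.38 with GapmeR 1 against 5.12, 5.21 and 5.34 on the control arrays. Without that array, 11 sense genes passed the study's threshold, 1 antisense RNA passed (*HEXA-AS1*), and *UST* had an adjusted p of 0.0446 (log2 change -1.35, SE 0.14). Without GapmeR 1 replicate 1, a single sense gene, *HS6ST2*, remained past it, and without control replicate 2 or GapmeR 1 replicate 2 there were 4. *HS6ST2* passed with any 1 of the 9 arrays left out. Without GapmeR 2 replicate 1, *EGFR-AS1* was the 1 antisense RNA to pass. The antisense RNAs of the 5 genes changed by between -0.41 (*DIAPH3-AS2*) and 0.10 (*DPYD-AS1*) with GapmeR 1.

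The antisense RNAs named next have the smallest unadjusted p in HCC1806 among those with all 6 GapmeR arrays on one side of the control mean. *LEMD1*, *HS6ST2* and *NAV2* were chosen in the same way among the sense genes. This choice favors a separation from the control arrays. The antisense RNAs were dim. *FRMD6-AS2* read 2.71, 2.98 and 2.46 on the arrays of the control GapmeR, 2.24, 2.29 and 2.03 on those of GapmeR 1 and 2.38, 2.38 and 2.34 on those of GapmeR 2 (log2 change with both -0.44, SE 0.13, unadjusted p = 0.00731, adjusted p = 0.939), and *FRMD6* changed by -0.14 (SE 0.10). *WWC2-AS2* had 3.21, 3.24 and 3.46 on the control arrays and 3.45 to 3.94 on the others (0.39, SE 0.14, unadjusted p = 0.0208, adjusted p = 0.939). Its sense gene *WWC2*, a regulator of the Hippo pathway, had values in the other direction (-0.30, SE 0.13, unadjusted p = 0.0402), with control signals of 6.84 to 6.86 and GapmeR signals of 6.30 to 6.74. *RNF157-AS1* and the ubiquitin ligase gene *RNF157* were both lower in mean, by -0.39 (SE 0.14) and -0.40 (SE 0.15), with unadjusted p = 0.0223 and 0.0280. *NAV2* had a change of -0.41 (SE 0.13, unadjusted p = 0.0121), and *NAV2-AS4* and *NAV2-AS5* of 0.08 and -0.25.

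In HCC1395, 1 antisense RNA and 1 sense gene passed the study's threshold, where 1.77% of all transcript clusters and 0.578% of those with a symbol did. The antisense RNA was *ZEB2-AS1*. Its control signals were 5.60, 5.60 and 5.28, those of GapmeR 1 were 5.23, 5.16 and 6.04 and those of GapmeR 2 were 4.82, 4.72 and 4.71. The GapmeR 2 arrays lay below all others, with a log2 change of -0.74 (SE 0.22, unadjusted p = 0.00752, adjusted p = 0.689), while that of GapmeR 1 was -0.02. *ZEB2* changed by 0.09 and -0.03. *ZEB2-AS1* passed the threshold with any 1 of the 9 arrays left out, but not when the mean of all its transcript clusters was taken.

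The sense gene was *GPC6*. Against control signals of 9.63, 9.66 and 9.82, it read 8.77, 8.86 and 9.07 on the GapmeR 1 arrays and 8.92, 9.23 and 9.34 on the GapmeR 2 arrays, and all GapmeR arrays lay below the controls. The log2 change with both was -0.67 (SE 0.12, unadjusted p = 0.000323, adjusted p = 0.577). *GPC6-AS2*, far below the array median, had 0.21 (SE 0.09, unadjusted p = 0.0345). *GPC6* also passed with any 1 array left out. A second sense gene, *GALNT9*, passed without control replicate 1 or GapmeR 2 replicate 2, and a second antisense RNA passed without those arrays or control replicate 3 (*TLR8-AS1*, *TAPT1-AS1* and *ELOVL2-AS1*).

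The antisense RNAs named in HCC1395 were chosen by the same rule, as were *GPC6*, *ZNF566* and *C8orf34*. For 2 of the 3 antisense RNAs all GapmeR arrays lay below the control arrays, a separation that this choice favors. *SPATA13-AS1* had signals of 4.07, 4.06 and 4.01 on the control arrays and 3.47 to 3.81 on the GapmeR arrays (-0.40, SE 0.09, unadjusted p = 0.00187, adjusted p = 0.634), while *SPATA13*, a guanine nucleotide exchange factor, changed by 0.04 (SE 0.11). *MSC-AS1* had 6.04, 6.06 and 6.0 against 5.37 to 5.82 (-0.42, SE 0.12, unadjusted p = 0.00786), and *MSC* changed by -0.17 (SE 0.13). *ELOVL2-AS1* and *ELOVL2*, an elongase of polyunsaturated fatty acids, were the pair with both members at an unadjusted p under 0.05 in 1 direction, -0.43 (SE 0.13) and -0.40 (SE 0.13), with unadjusted p = 0.00914 and 0.0135. *ZNF566* had 4.14, 4.17 and 4.29 on the control arrays and 4.52 to 5.07 on the others (0.55, SE 0.14, unadjusted p = 0.00372), and *ZNF566-AS1*, which starts in its promoter, changed by 0.19 (SE 0.19). *C8orf34* had a change of -0.36 (SE 0.11, unadjusted p = 0.00842) and *C8orf34-AS1* of 0.04.

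**Figure D4:**
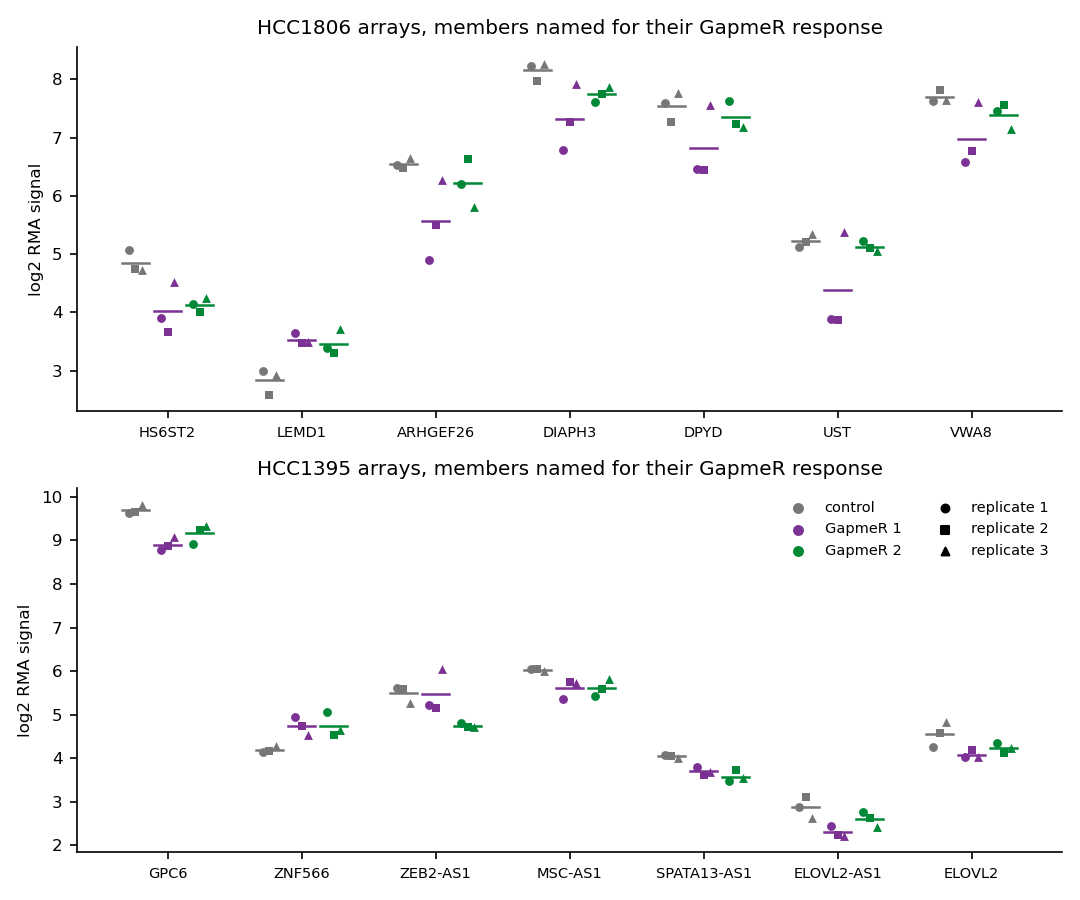
Symbols give the log2 RMA signal of each array for the members named for their response to the GapmeRs, with the group means as bars and 3 arrays per group, on y axes that do not start at 0. In HCC1806 the array of GapmeR 1 replicate 3 (purple triangle) lies above the other GapmeR 1 arrays for 6 of the 7 genes (all but *LEMD1*), and in HCC1395 all GapmeR arrays of *GPC6* lie below its control arrays.

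Across the pairs, the changes of antisense and sense were barely related. The Pearson correlation over the 314 pairs was 0.06 in HCC1806 and 0.07 in HCC1395 for the mean of both GapmeRs, against 0.27 for the line difference, and with single GapmeRs it lay between 0.00 and 0.10. Both members had an unadjusted p under 0.05 for the mean of both GapmeRs in 2 pairs of HCC1806 (*RNF157* and *WWC2*) and in 2 of HCC1395 (*ELOVL2* and *GPC6*), 1 in each line with opposite signs, where 5.26% and 6.55% of single transcript clusters passed. The antisense minus sense change passed an adjusted p of 0.05 in 0 pairs, with a smallest value of 0.360 (HCC1395, GapmeR 1).

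**Figure D5:**
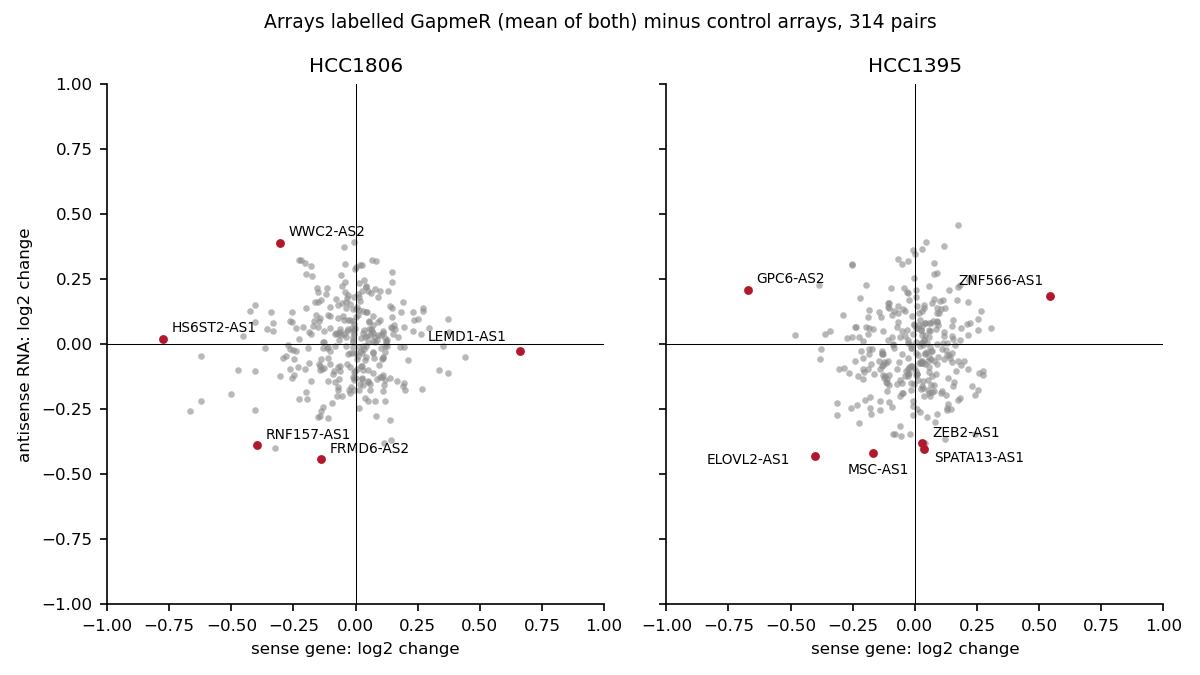
Each point is 1 of the 314 pairs, with the log2 change of the sense gene on the x axis and of the antisense RNA on the y axis, as the mean of the GapmeR 1 and GapmeR 2 arrays minus the control arrays (n = 3 per group), HCC1806 on the left and HCC1395 on the right. All pairs lie within 1 log2 unit of no change on both axes, and *HS6ST2-AS1* in HCC1806 and *GPC6-AS2* in HCC1395 mark the pairs whose sense gene lies furthest out.

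The difference between the lines in the GapmeR response was tested directly, and 0 members passed an adjusted p of 0.05 (limma), as did 0 of all transcript clusters. At an unadjusted p under 0.05 there were 10 antisense RNAs and 24 sense genes, where 6.6% of all transcript clusters passed. The largest difference among the named members was that of *LEMD1*, whose change in HCC1806 exceeded that in HCC1395 by 0.97 (unadjusted p = 0.000291).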

How the data were processed

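Total RNA of the 18 samples was labelled with a whole-transcript kit (WT Plus) and hybridised to Affymetrix Human Gene 2.0 ST arrays. The deposited values are log2 signals per transcript cluster that the authors made with RMA (background correction, quantile normalization and probe summary) in Affymetrix Expression Console, so the arrays were already on a common scale, with medians between 4.04 and 4.13. The version, genome build and annotation are not given in the sources used here, nor are probe positions relative to the sense exons, and an array gives no read depth, so that the number of arrays limits the precision. Gene symbols came from the platform annotation, and the study's own fold changes and p-values were not used.

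Differences were fitted with limma 3.58.1 (R 4.3.3) on all 53617 transcript clusters with Benjamini-Hochberg adjustment, the line differences and the difference between the lines in the response over all 18 arrays and each GapmeR response over the 9 arrays of its line. The antisense minus sense difference was fitted in the same way on the log2 ratio within each array and adjusted over the pairs together with all transcript clusters. The tests were checked on simulated arrays with known changes. Of 50 changes of 1.6-fold, 14 were recovered at baseline, 12 in the HCC1806 response and 10 in the HCC1395 response, with both GapmeRs together. Of 50 changes of 2-fold, 39, 44 and 41 were recovered. No 2 arrays held identical values.

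Named at baseline were the 8 same-direction and 5 opposite pairs with the largest smaller difference of the pair, the 4 largest antisense differences of at least 1 without a sense call and the 4 largest sense differences of at least 2 without an antisense call. For each line, the 3 antisense RNAs and 3 sense genes with the smallest unadjusted p for both GapmeRs and all 6 GapmeR arrays on one side of the control mean were named, as were the 5 highest and 5 lowest correlations. The lists by role of the sense gene cover transcription factors, signaling, adhesion with matrix and cytoskeleton, and ion channels with transporters. Members and lists were chosen with earlier results of these data known. For arrangement, a strand missing for 1 member of a pair (72 pairs) was taken as opposite to that of its partner, and of 217 pairs with both strands given 0 lay on the same strand. Promoters and positions are from RefSeq (GRCh38.p14).

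Alternatives were a further quantile normalization, centring on array medians, leaving out the dimmest 40% of transcript clusters, an intensity trend, ANOVA without moderation, other sets of arrays in the fit, the replicate number as a block, the mean of all transcript clusters of a symbol, a 2-fold threshold and leaving out each array in turn.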

Additional observations from a re-analysis of the deposited data

How the results depend on the processing

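At a threshold of 2-fold, 10 antisense RNAs were higher and 33 lower in HCC1806, 28 sense genes were higher and 51 lower, and 18 pairs had the same and 2 the opposite direction. With the GapmeRs, 0 sense genes of HCC1806 and 0 antisense RNAs and 0 sense genes of HCC1395 passed 2-fold. With the mean of all transcript clusters of a symbol, 0 antisense RNAs of HCC1395 passed the study's threshold. The antisense minus sense difference of *PRICKLE2* and *PRICKLE2-AS3* was then -0.59 (adjusted p = 0.0318) in place of 0.11. *PRICKLE2* has 2 transcript clusters and *PRICKLE2-AS3* has 1, so only the value of the sense gene changes with this choice.

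Leaving out 1 array at a time gave 21 to 25 antisense RNAs higher and 63 to 67 lower at baseline, 57 to 61 and 93 to 99 sense genes, 49 to 55 pairs with the same and 6 to 9 with opposite directions, and 121 to 131 pairs whose members differed. The difference of *DIAPH3-AS1*, which was not called, ran from -0.42 to 0.22, the latter without HCC1806 control replicate 3. In HCC1806, 0 to 1 members passed an adjusted p of 0.05, and 0 to 1 antisense RNAs and 1 to 11 sense genes passed the study's threshold. In HCC1395, 1 to 2 antisense RNAs and 1 to 2 sense genes did. The *TRHDE* pair difference also missed the threshold in ANOVA without moderation (adjusted p = 0.0761).

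Arrays of different groups with the same replicate number deviated together weakly at most. The correlations were mostly positive but small (r between -0.01 and 0.11, above 0.1 in 1 of 9 combinations of HCC1395 and 0 of 9 of HCC1806). Arrays with different numbers were not compared in this way. The numbers were not taken to pair arrays in the main fits. With the replicate number as a block, 25 antisense RNAs were higher and 75 lower, 61 pairs had the same and 8 the opposite direction, and 0 members were called with the GapmeRs. Of the alternative values of single members, 1049 kept their direction and side of the threshold, 6 no longer passed it and 2 reversed.

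Of the 164 antisense RNAs at or below the array median on average, 18 were called at baseline, against 81 of the 150 above it. The sources used here do not say whether the 3 arrays of a group came from separate cultures.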
